A study of Mus musculus with 15 samples.

Results

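The crystallin and lens fibre genes are 10 of the 55421 genes counted in eyecup RNA, chosen by name: the α-crystallins Cryaa and Cryab, the β-crystallins Cryba1, Cryba2, Cryba4, Crybb1, Crybb2 and Crybb3, the γ-type crystallin Crygs, and Bfsp1. All 10 were found by symbol and all 10 passed the filter on low counts. Posterior eyecups from which the neural retina had been removed were taken from 15 mice of both sexes at 2.5 months of age, and the eyecups of a mouse were combined into 1 library. The groups were 4 WT mice, 6 heterozygous Tmem135 FUN025/+ mice and 5 homozygous Tmem135 FUN025/FUN025 mice, all on the C57BL/6J background. FUN025 is a mutation of Tmem135, a gene for a transmembrane protein linked to mitochondria, and the mutant mice carry it in every cell. The comparisons ask how a single mutant allele and a pair of them change RNA levels in a tissue that holds the retinal pigment epithelium, choroid and sclera, and for these genes whether the counts follow genotype or follow the amount of lens RNA in a library.

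Crystallins are the bulk proteins of the lens, packed at high concentration in elongated fibre cells that keep the lens clear. The α-crystallins are small heat shock proteins that hold unfolding proteins in solution, whereas the β- and γ-crystallins form a separate family built of Greek key folds. Bfsp1 encodes filensin, which joins with the Bfsp2 product phakinin in the beaded filament, an intermediate filament particular to lens fibres. Cryab is also abundant in heart and skeletal muscle, glia and pigment epithelium, and several β-crystallins have been described in the retina. Lens fibre genes are switched on by factors such as Pax6, Maf, Prox1 and Sox1, of which Maf binds Maf recognition elements.

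Promoter sequences are shown as background to the genes, of which 7 moved together between libraries and 3 held more than 3 counts in every library. RefSeq promoters on GRCm38.p6 were matched by symbol for 9 of the 10 genes, not for Cryab. The 250 bases before the transcription start of 5 of them are printed 5′ to 3′, with capitals on TGCTGA or its reverse complement TCAGCA, the core letters of a Maf recognition element. Cryaa lies on chromosome 17, forward strand, promoter at chr17:31677681-31677930. Cryba1 lies on chromosome 11, reverse strand, promoter at chr11:77725294-77725543. Crybb1 lies on chromosome 5, forward strand, promoter at chr5:112255570-112255819. Crybb3 lies on chromosome 5, reverse strand, promoter at chr5:113081585-113081834. Bfsp1 lies on chromosome 2, reverse strand, promoter at chr2:143863174-143863423.
Cryaa: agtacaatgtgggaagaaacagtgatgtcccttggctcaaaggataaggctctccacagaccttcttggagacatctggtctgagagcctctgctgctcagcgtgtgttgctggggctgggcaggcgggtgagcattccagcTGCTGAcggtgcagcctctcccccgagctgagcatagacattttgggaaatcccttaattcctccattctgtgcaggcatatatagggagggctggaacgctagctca
Cryba1: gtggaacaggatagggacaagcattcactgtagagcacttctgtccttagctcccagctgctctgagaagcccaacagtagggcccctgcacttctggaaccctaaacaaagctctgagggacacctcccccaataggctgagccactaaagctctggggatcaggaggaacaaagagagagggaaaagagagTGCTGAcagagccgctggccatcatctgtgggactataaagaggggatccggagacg
Crybb1: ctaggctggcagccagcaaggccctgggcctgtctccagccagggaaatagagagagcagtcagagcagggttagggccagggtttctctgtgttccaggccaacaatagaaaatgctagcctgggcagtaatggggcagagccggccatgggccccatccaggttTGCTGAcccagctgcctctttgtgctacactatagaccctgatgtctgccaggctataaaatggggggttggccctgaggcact
Crybb3: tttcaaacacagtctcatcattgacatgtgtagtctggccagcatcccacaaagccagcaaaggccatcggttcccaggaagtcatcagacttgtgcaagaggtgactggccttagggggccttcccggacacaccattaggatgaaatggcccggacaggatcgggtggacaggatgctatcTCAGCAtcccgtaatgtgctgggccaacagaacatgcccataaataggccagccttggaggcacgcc
Bfsp1: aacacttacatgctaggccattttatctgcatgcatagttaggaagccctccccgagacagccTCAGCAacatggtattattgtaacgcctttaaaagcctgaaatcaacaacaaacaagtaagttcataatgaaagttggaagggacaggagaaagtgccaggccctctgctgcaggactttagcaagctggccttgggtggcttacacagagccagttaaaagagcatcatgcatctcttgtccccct
The letters, searched on both strands, were in 8 of the 9 promoters, all but that of Crybb2, and in 16.1% of the 32851 promoters of the same length in the table. They began 57 bases before the start of Cryba1, 67 before Crybb3, 84 before Crybb1, 108 before Cryaa and 187 before Bfsp1. The letters TATAAA or TTTATA were in 3 of the 9 promoters, those of Cryba1, Crybb1 and Crygs, against 12.4% of all. These matches describe letters only and say nothing on binding in eyecups. Crybb2, whose promoter lacks the letters, and Cryaa, whose promoter holds them, had much the same order of libraries.

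In GENCODE M21 on GRCm38, Cryba4 (112246493 to 112252518) and Crybb1 (112255815 to 112269585) are transcribed away from each other on chromosome 5, and Crybb2 (113058258 to 113070117) lies beside Crybb3 (113075839 to 113081584) on the same strand. The other members are on chromosome 1 (Cryba2), 2 (Bfsp1), 9 (Cryab), 11 (Cryba1), 16 (Crygs) and 17 (Cryaa). Exons of Cryab overlap those of Hspb2 on the opposite strand by 252 bases, and exons of Cryaa overlap the antisense gene AC090881.2 by 273 bases. Since the strand setting of the counting is not given in the sources used here, reads in those stretches cannot be assigned to one strand. Of the sequence of the 10 genes in stretches of 31 bases, other genes held 14.8% for Cryab and 10.3% for Cryaa, both through these overlaps, and at most 4.16% for any of the other 8.

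Library totals were 18094977 to 20029919 counts in WT, 10903183 to 13456349 in FUN025/+ and 11053535 to 15038383 in FUN025/FUN025 eyecups, so that each WT library was deeper than each mutant library. Levels are given in CPM, a count divided by its library's total after scaling by edgeR's TMM factors and multiplied by 1e6. A level of 3 counts, the smallest given any weight here, stood at 0.15 to 0.167 CPM in WT and 0.197 to 0.282 CPM in mutant libraries, and this limit covers counting error only. Pigment epithelium genes were abundant in every library (Rpe65 at 1484 to 2610 CPM), and rod genes were still counted in each although the neural retina had been taken off. In libraries made from whole tissue, more cells of a type and more RNA per cell cannot be told apart.

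Cryaa, the α-crystallin most restricted to lens, spanned the widest range of the 10. It had 0 counts in WT replicates 1, 3 and 4, which allows up to 0.167, 0.15 and 0.167 CPM there, and 113 counts or 6.07 CPM in WT replicate 2. In FUN025/+ eyecups the lowest, median and highest levels were 0.188, 2.25 and 46.4 CPM. In the 5 FUN025/FUN025 eyecups it stood at 1.25, 0.307, 115, 59.4 and 3.17 CPM. The 3 high libraries (FUN025/FUN025 replicates 3 and 4 and FUN025/+ replicate 1) stood apart from the rest of their own genotypes, while WT replicate 2 overlapped with ordinary mutant libraries. All 6 FUN025/+ and all 5 FUN025/FUN025 libraries held at least 2 and 4 Cryaa counts respectively, whereas 3 of 4 WT libraries held 0 at a greater depth.

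Crybb2, a basic β-crystallin abundant in the adult lens, repeated that order. It had 0 counts in the same 3 WT libraries and 4.14 CPM in WT replicate 2. In FUN025/+ eyecups the lowest, median and highest levels were 0.0939, 1.03 and 21.7 CPM. In FUN025/FUN025 eyecups it stood at 0.983, 0, 37.1, 22.1 and 2.08 CPM. Its leading libraries were again FUN025/FUN025 replicate 3, FUN025/FUN025 replicate 4 and FUN025/+ replicate 1.

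Cryba1, which encodes βA3/A1-crystallin and has been described in retinal astrocytes and pigment epithelium, was highest in those libraries as well. It had exactly 1 count in each of WT replicates 1, 3 and 4 and 1.93 CPM in WT replicate 2. In FUN025/+ eyecups the lowest, median and highest levels were 0.0939, 0.835 and 12.3 CPM, and in FUN025/FUN025 eyecups the 5 values were 0.852, 0.0768, 25.6, 13.7 and 0.815 CPM. Crygs, the γ-type crystallin of secondary fibres, had 4, 51, 1 and 4 counts in the WT libraries. Its FUN025/+ levels had a median of 0.547 CPM and a highest value of 10.4 CPM, and FUN025/FUN025 replicate 3 reached 23.8 CPM.

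The remaining 3 of this kind were Cryba2 and Cryba4, both acidic β-crystallins, and Crybb1, a basic one. Cryba2 had 0 counts in 5 of 15 libraries, a median of 0.149 CPM and a highest level of 8.02 CPM. Cryba4 had at least 1 count in every library, a median of 0.59 CPM and a highest level of 6.25 CPM. Crybb1 had 0 counts in 1 library, a median of 0.384 CPM and a highest level of 6.09 CPM. Cryba2 and Crybb1 were at or below 3 counts in 8 and 6 libraries.

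Cryab was the exception in level. It stood at 276, 297, 288 and 297 CPM in the 4 WT eyecups, at 229, 250 and 262 CPM as the lowest, median and highest of the FUN025/+ eyecups, and at 248, 241, 307, 274 and 263 CPM in the FUN025/FUN025 eyecups. Its highest library was 1.17 times its median, compared with 69.9 times for Cryaa and 37.8 times for Crybb2. Per kilobase of exon, the median level of Cryab was 177 CPM per kb, while those of the other 9 were between 0.125 (Cryba2) and 1.57 (Bfsp1) CPM per kb. In FUN025/FUN025 replicate 3 that gap narrowed, with Cryab at 208 and Cryaa at 55.3 CPM per kb.

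Bfsp1 and Crybb3 took an intermediate place, low but never absent. Bfsp1 stood at 3.44, 4.19, 3.84 and 3.55 CPM in WT eyecups, at 2.72, 3.41 and 5.94 CPM as the lowest, median and highest of FUN025/+, and at 4.39, 3.38, 6.66, 4.51 and 4.26 CPM in FUN025/FUN025. Crybb3, a basic β-crystallin, stood at 2.39, 3.6, 2.44 and 3.77 CPM in WT eyecups, at 1.41, 2.44 and 7.11 CPM in the same order for FUN025/+, and at 2.36, 0.999, 8.02, 8.04 and 2.26 CPM in FUN025/FUN025. The fewest counts in any library were 33 for Bfsp1 and 13 for Crybb3. Both were highest in the same 3 mutant libraries as the crystallins above, but by smaller factors, the highest library being 1.77 times the median for Bfsp1 and 3.29 times for Crybb3.

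**Figure D1:**
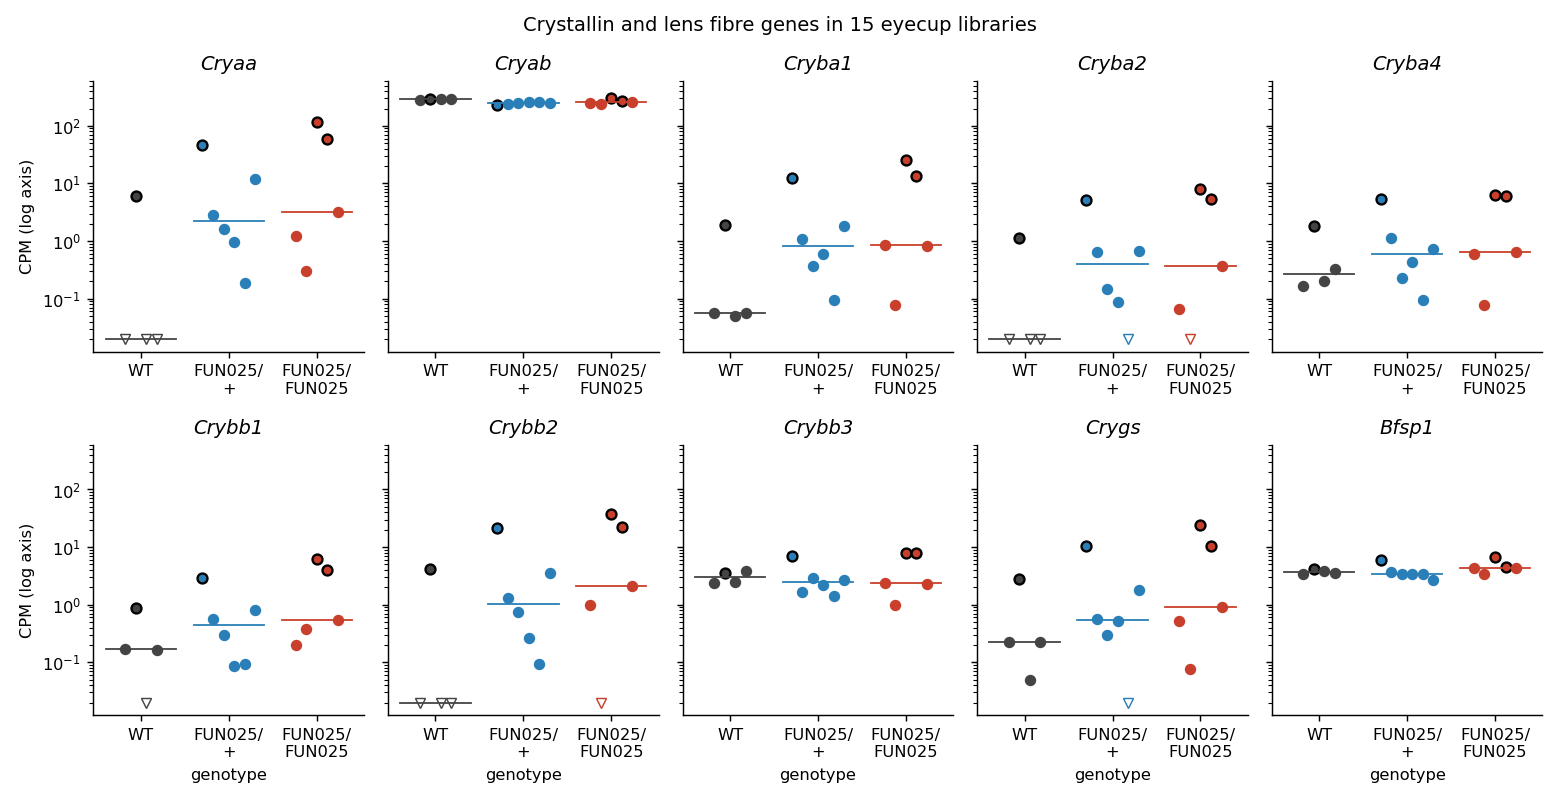
Level of each gene in CPM on a log axis, 1 point per library, by genotype (4 WT, 6 FUN025/+, 5 FUN025/FUN025), with lines at the group medians. Open triangles mark libraries listed at 0, drawn at the foot of the axis, and black rims mark the 4 libraries with at least 5 CPM of Crygb, Crygc and Crygd. Cryaa ran from 0 to 115 CPM, whereas Cryab stayed between 229 and 307 CPM.

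To place the libraries by lens RNA without using the 10 genes themselves, counts of Crygb, Crygc and Crygd, γ-crystallins of primary and secondary lens fibres, were summed. The sum was 0 in WT replicates 1, 3 and 4 and in FUN025/+ replicate 5. It was 0.154 to 2.63 CPM in 7 mutant libraries, and 6.71, 12.4, 16.2 and 17.8 CPM in WT replicate 2, FUN025/FUN025 replicate 4, FUN025/FUN025 replicate 3 and FUN025/+ replicate 1. These γ-crystallins share sequence with one another or with other γ-crystallins (31.6% of Crygb, 25.8% of Crygc and 25.1% of Crygd in stretches of 31 bases), so their separate levels are uncertain and the sum was used to order the libraries.

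In the 4 libraries with no count of these γ-crystallins, the 10 genes fell into separate kinds. Cryab was at 262 to 297 CPM there, on average 91.4% of its level in its highest library. Bfsp1 was at 3.38 to 3.84 CPM (53.4% of its highest library) and Crybb3 at 1.41 to 3.77 CPM (31.1%). The other 7 had at most 6 counts in any of these libraries and averaged 0 to 3.17% of their highest library. Summed over those 7 genes, the level was 0.299 to 0.777 CPM in these 4 libraries and 222 CPM in FUN025/FUN025 replicate 3.

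**Figure D2:**
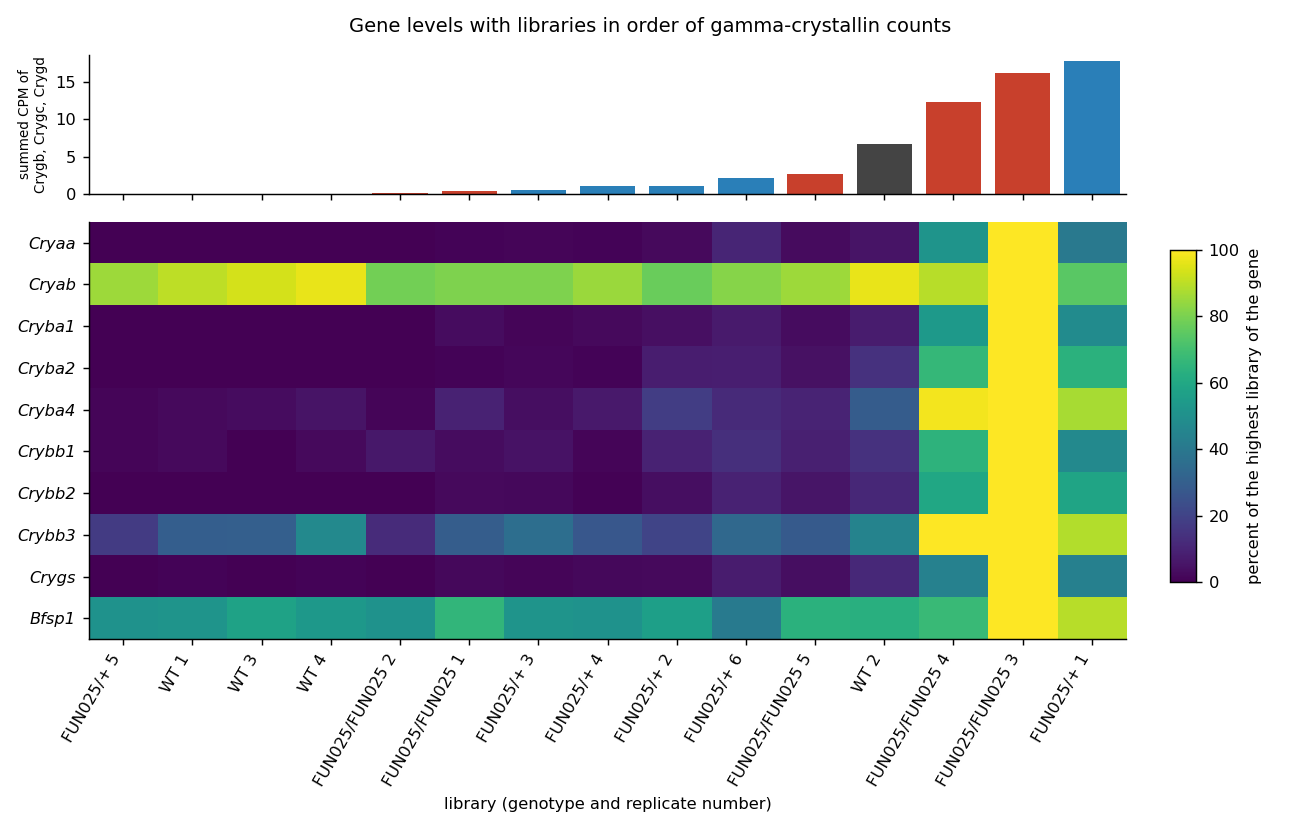
Top, summed CPM of Crygb, Crygc and Crygd in each of the 15 libraries, placed in rising order and coloured by genotype (grey WT, blue FUN025/+, red FUN025/FUN025). Bottom, the level of each gene in the same libraries as a percentage of its own highest library. Cryaa, Cryba1, Cryba2, Cryba4, Crybb1, Crybb2 and Crygs were dark on the left and bright in the last 3 libraries, Cryab was bright throughout, and Crybb3 and Bfsp1 kept intermediate levels on the left.

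The proportions among these crystallins were compared in the 4 libraries with the most γ-crystallin counts. For every 100 Cryaa counts there were 26.6, 22.3 and 23.1 Cryba1 counts in FUN025/+ replicate 1, FUN025/FUN025 replicate 3 and FUN025/FUN025 replicate 4, and 31.9 in WT replicate 2. For Crybb2 the numbers were 46.8, 32.3 and 37.2, with 68.1 in WT replicate 2. For Cryba4 they spread more widely, at 11.7, 5.45 and 10.4, with 30.1 in WT replicate 2. For Cryab they were 493, 268 and 461, with 4892 in WT replicate 2. Cryab counts thus kept no fixed proportion to Cryaa counts.

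The same grouping was measured with correlations over the 15 libraries after removal of the genotype means. Among Cryaa, Cryba1, Cryba2, Cryba4, Crybb1, Crybb2 and Crygs, the 21 pairs had Pearson's r of 0.909 to 0.989 (median 0.97) on log2 CPM. Crybb3 reached r = 0.852 and Bfsp1 r = 0.659 with Cryaa, and Cryab r = 0.351. The points of these correlations share a library, and with it depth and tissue makeup, so the r values are a description.

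A list of 18 other lens fibre genes gave 9 of the 10 genes a positive correlation with its mean log2 CPM that passed a permutation test with 100000 resamples within genotype, two-sided, with Benjamini-Hochberg adjustment over the 30 tests of 10 genes against 3 lists. Cryaa had r = 0.953 (rho = 0.921, adjusted permutation p = 0.00012 and 0.00035), and r was 0.959 without the 2 libraries farthest from the median of the list, WT replicate 2 and FUN025/+ replicate 1. Crybb3 had r = 0.855 (rho = 0.711, adjusted permutation p = 0.00319 and 0.0467), and 0.881 without those libraries. Bfsp1 had r = 0.782 (rho = 0.604, adjusted permutation p = 0.0115 and 0.0921), and 0.633 without them, so that its relation passed for r and not for rho. Cryab had r = 0.282 (rho = 0.243, adjusted permutation p = 0.429 and 0.526), and 0.702 without them. With the 4 libraries of at least 5 CPM γ-crystallin left out together, a choice made after seeing the data, 0 of the 10 passed over the 11 libraries kept by the same permutation test, 6 had an unadjusted p under 0.05, and r ran from −0.049 (Bfsp1) to 0.908 (Crygs).

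Against 15 rod photoreceptor genes and 13 striated muscle genes, none of the 10 passed the same permutation test on all 15 libraries. For rod genes r was between 0.0126 (Cryab) and 0.514 (Bfsp1), and for muscle genes between −0.437 (Bfsp1) and 0.479 (Cryab). Cryab, which muscle fibres also express, had rho = 0.411 with the muscle genes and adjusted permutation p of 0.0766 for r and 0.257 for rho, and r was 0.443 without the 2 libraries farthest from the median of that list. Without FUN025/FUN025 replicate 2 the rod count was 8 of 10, so that it rests on that library.

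**Figure D3:**
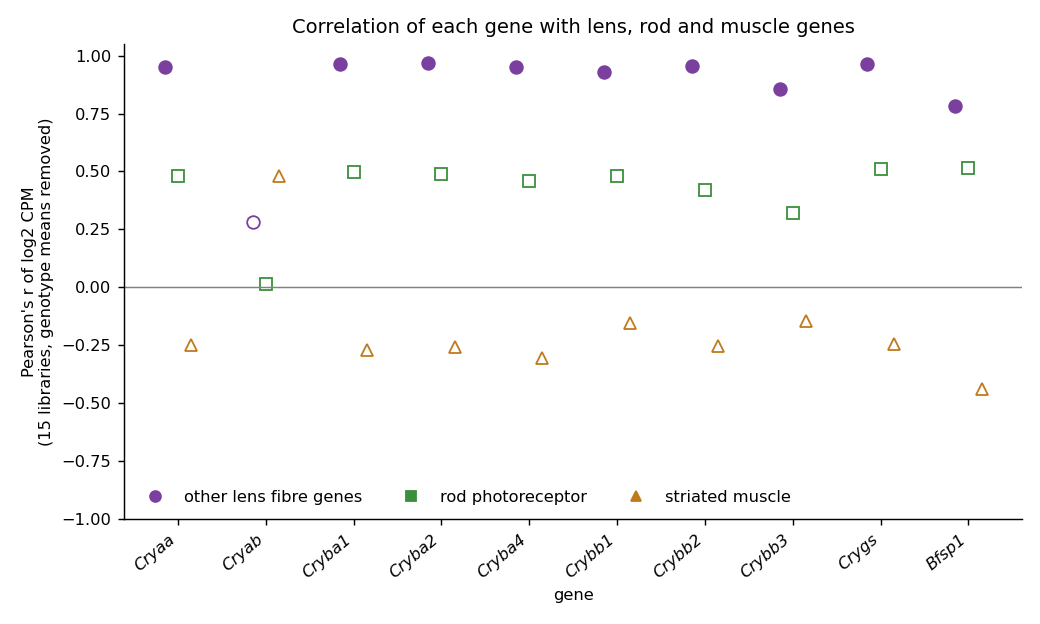
Pearson's r of each gene's log2 CPM with the mean log2 CPM of other lens fibre genes (circles), rod photoreceptor genes (squares) and striated muscle genes (triangles), over 15 libraries with genotype means removed. Filled symbols passed the permutation test after adjustment. Circles were filled for 9 of 10 genes, all but Cryab, and no square or triangle was filled.

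Genes outside the 10 with the most similar profile were sought among 17583 tested genes with a mean of at least 1 CPM. For Cryaa they were AC090881.2 (r = 0.992), Crygb (0.97), Crygd (0.96), Gm31749 (0.874) and Pitpnm2os2 (0.845). The first shares exon bases with Cryaa on the other strand, the next are γ-crystallins whose separate levels are uncertain, and the last are a predicted transcript and an opposite-strand transcript. For Crybb2 the same 5 genes came first in the same order, with r from 0.978 to 0.846. For Cryab they were Timm8b (0.882), Uqcc1 (0.879), Smap1 (0.859), 1110008P14Rik (0.858) and Chchd3 (0.858), of which Timm8b, Uqcc1 and Chchd3 encode mitochondrial proteins, so no lens gene was among them.

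Between FUN025/+ and WT eyecups, 1 of the 10 genes, Cryab, had an adjusted p under 0.05 by edgeR's quasi-likelihood test, and it fell. Over all 18979 genes tested, 13.7% were called in that comparison. Cryab was at 248 ± 13.2 CPM (SD, n = 6) in FUN025/+ and 289 ± 9.78 CPM (SD, n = 4) in WT eyecups, or −0.22 on the log2 scale (standard error 0.0607, 95% interval −0.35 to −0.10, edgeR adjusted p = 0.0206). The lowest WT library (276 CPM) was above the highest FUN025/+ library (262 CPM), a separation without overlap that 10.9% of all tested genes showed. DESeq2 and limma each called it as well, with a DESeq2 adjusted p of 0.00707. The call was lost without WT replicate 2 and without WT replicate 4, and with the 4 libraries of at least 5 CPM γ-crystallin left out together, where the log2 fold change was −0.18 (edgeR adjusted p = 0.054) against 7.71% of genes called. In that fit the CPM ranges of WT and FUN025/+ did not overlap for 4 of the 6 genes tested, Cryab lower and Cryaa, Cryba1 and Crybb2 higher in FUN025/+, beside 16.4% of all genes. For the latter 3 the lowest FUN025/+ library held 1 or 2 counts, under the limit of 3, and the genotypes in that fit still differed in lens RNA.

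The other 9 genes did not pass between FUN025/+ and WT eyecups. Cryaa was at 10.7 ± 18 CPM (SD, n = 6) and 1.52 ± 3.03 CPM (SD, n = 4), a log2 fold change of 2.84 whose 95% interval ran from −1.32 to 6.99 (edgeR adjusted p = 0.355). For Cryba1, Cryba2, Crybb2, Crygs, Crybb1 and Cryba4 the log2 fold changes were 2.40, 2.01, 2.19, 1.53, 1.44 and 1.13, with standard errors from 1.25 to 1.78. For Crybb3 and Bfsp1 they were −0.01 and 0.01, with standard errors of 0.568 and 0.2. Single libraries moved these values. For Cryaa the log2 fold change was 1.23 without FUN025/+ replicate 1 and 10.24 without WT replicate 2, the latter fitted against WT libraries all at 0, and for Crybb2 it was 0.22 and 9.04. The median over the 10 was 1.49 with 8 higher, beside −0.0024 over all genes tested. With the 4 libraries left out, 6 of the 10 genes could be tested and Cryba1 was the 1 called, higher in FUN025/+ (fitted log2 fold change 3.70, edgeR adjusted p = 0.0384). Each of the 3 WT libraries in that fit held 1 Cryba1 count and the 5 FUN025/+ libraries held 1 to 22, so that this fold depends on counts at the limit. Cryaa and Crybb2, at 0 in all 3 WT libraries, had means of 3.53 and 1.19 CPM in the 5 FUN025/+ libraries, at least 21.2-fold and 7.14-fold higher than the WT limit of 3 counts in a library. FUN025/+ replicate 6 carried much of this, and without it the limits were 8.48-fold and 3.62-fold. Neither gene was called (edgeR adjusted p = 0.126 and 0.145). The 3 WT libraries kept had 0 CPM of Crygb, Crygc and Crygd, and the 5 FUN025/+ libraries had 0 to 2.06 CPM. The genotypes thus still differed in lens RNA in this fit, and its part in these folds was not tested.

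Between FUN025/FUN025 and WT eyecups, 0 of the 10 genes passed by edgeR's quasi-likelihood test, where 14.0% of all genes were called. DESeq2 and limma also called 0, and 3 genes, Cryaa, Cryba1 and Crybb1, had an unadjusted p under 0.05. Cryaa was at 35.8 ± 50.8 CPM (SD, n = 5) against 1.52 ± 3.03 CPM (SD, n = 4), a log2 fold change of 4.55 with a 95% interval of 0.32 to 8.78 (edgeR adjusted p = 0.145). It was 3.39 without FUN025/FUN025 replicate 3 and 11.95 without WT replicate 2, again with WT all at 0. Crybb1 was at 2.23 ± 2.66 CPM (SD, n = 5) against 0.298 ± 0.382 CPM (SD, n = 4), a log2 fold change of 2.87 and the smallest adjusted p of the 10 (0.139 by edgeR). Of the 10, 9 were higher, with a median log2 fold change of 2.998 beside −0.0070 over all genes tested. Cryab was at 267 ± 26 CPM (SD, n = 5), a log2 fold change of −0.12 with a 95% interval of −0.25 to 0.01 (edgeR adjusted p = 0.228). The difference between the called change of Cryab in FUN025/+ and this one is the comparison of the mutant genotypes below.

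Without the 4 libraries, Cryab in FUN025/FUN025 eyecups had a log2 fold change of −0.19 (edgeR adjusted p = 0.0783), beside −0.18 in FUN025/+. In the same fit Crybb3 turned from 0.50 to −0.60 (edgeR adjusted p = 0.314) and Bfsp1 went from 0.30 to 0.16 (edgeR adjusted p = 0.643). Cryba1 had a log2 fold change of 3.25 (edgeR adjusted p = 0.102). Cryaa and Crybb2, at 0 in the 3 WT libraries, had means of 1.57 and 1.02 CPM in the 3 FUN025/FUN025 libraries, at least 9.45-fold and 6.14-fold higher than the WT limit of 3 counts in a library (edgeR adjusted p = 0.259 and 0.207). Without FUN025/FUN025 replicate 5 these limits were 4.66-fold and 2.95-fold, and Crybb2 was at 0 in 1 of the 3 libraries. In that fit 0 of 6 tested genes passed, beside 6.29% of all genes, and the CPM ranges of 4 of the 6 (Cryaa, Cryab, Cryba1 and Crybb3) did not overlap between the genotypes, beside 28.2% of all genes. For Cryba1 the ranges differ by depth alone at their nearest point, since the lowest FUN025/FUN025 library held 1 count, as did each of the 3 WT libraries. The 3 FUN025/FUN025 libraries kept had 0.154 to 2.63 CPM of Crygb, Crygc and Crygd, against 0 in the WT libraries. The part of this lens RNA in the differences was not tested.

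Between the mutant genotypes, 0 of the 10 genes passed by edgeR's quasi-likelihood test, with 0 at an unadjusted p under 0.05, 0 by DESeq2 and 0 by limma, where 0.522% of all genes were called. All 10 were higher in FUN025/FUN025 eyecups, with a median log2 fold change of 1.31. Cryab had a log2 fold change of 0.11 (95% interval −0.02 to 0.23, edgeR adjusted p = 0.912). Without the 4 libraries, 5 of the 6 genes that could be tested were lower in FUN025/FUN025 eyecups, all but Bfsp1, and 0 passed, beside 0.258% of all genes, so that the common direction did not hold without those libraries.

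**Figure D4:**
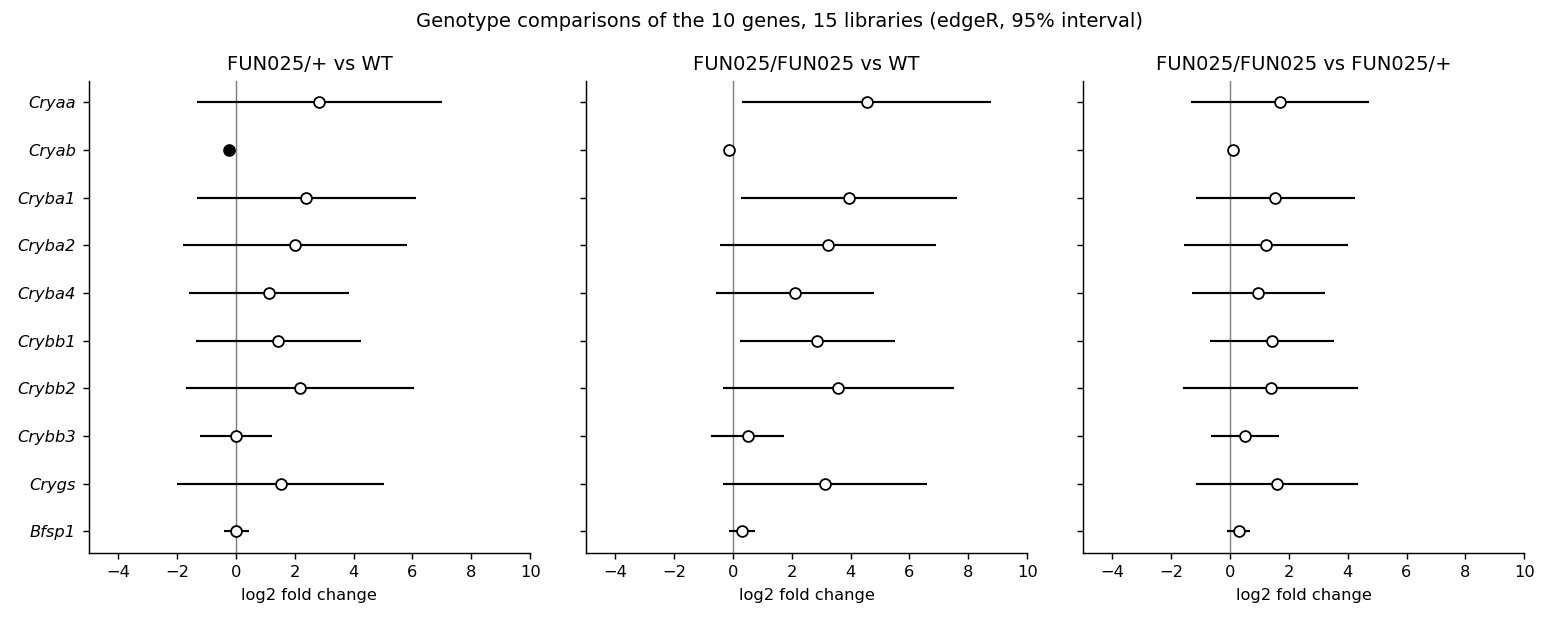
Log2 fold change of each gene in the 3 genotype comparisons, with 95% intervals, from edgeR's fit of all 15 libraries. Filled points had an adjusted p under 0.05. Only Cryab in FUN025/+ against WT was filled, at −0.22, and the intervals of Cryaa, Cryba1 and Crybb1 in FUN025/FUN025 against WT left 0 out while their adjusted p stayed above 0.05.

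Other genes were read beside the fall of Cryab. All 13 striated muscle genes were lower in both mutant genotypes than in WT, 4 of them called in each comparison, beside 13.7% and 14.0% of all genes. Their summed level was 6339 to 11398 CPM in WT, 3368 to 8435 CPM in FUN025/+ and 5039 to 6147 CPM in FUN025/FUN025 libraries, and none of the 13 was listed at 0. Genes called there included Mb (myoglobin), with log2 fold changes of −0.69 and −0.90, and Acta1 (skeletal actin), with −0.90 and −0.83. Desmin (Des), a partner of αB-crystallin in muscle, fell by 0.68 and 0.60 on the log2 scale. The part of muscle in the Cryab difference was not tested.

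Among 6 other small heat shock proteins, the family of the α-crystallins, 3 fell in FUN025/+ and 2 in FUN025/FUN025 eyecups, and none rose, where 13.7% and 14.0% of all genes were called. Hspb6 went from 85.6 CPM in WT to 53.6 and 55.6 CPM (log2 fold changes −0.68 and −0.62) and Hspb7 from 29.8 to 20.2 and 18 CPM (−0.56 and −0.73). Hspb8 fell in FUN025/+ eyecups (−0.32, edgeR adjusted p = 0.0449). Hspb2, the neighbour that shares exon bases with Cryab, was at 10.6, 9.79 and 10.6 CPM and was not called. Among 9 heat shock chaperones, Hsph1 (−0.31 and −0.34) and Bag3 (−0.36 and −0.42) fell in both genotypes, 2 of 9 in each comparison and thus not far from those shares. The medians of all genes tested were −0.0024 and −0.0070.

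**Figure D5:**
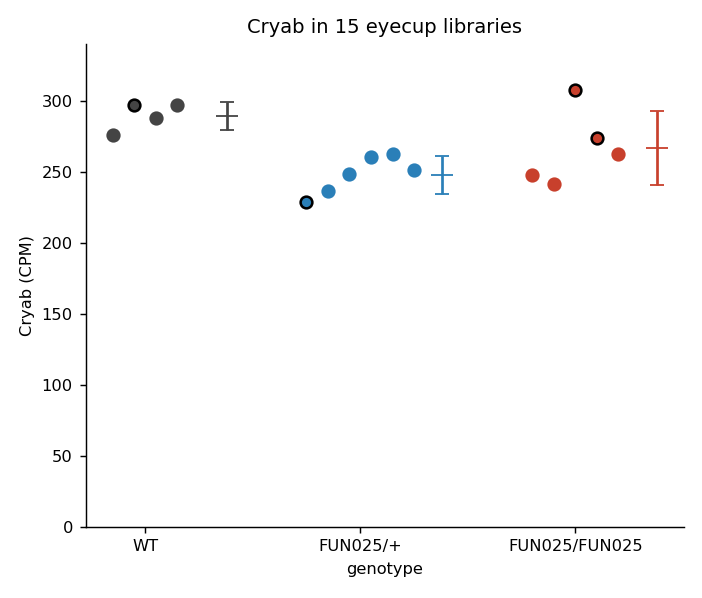
Cryab level in CPM in each of the 15 libraries, on an axis from 0, with the mean and SD of each genotype beside the points. Black rims mark the 4 libraries with at least 5 CPM of γ-crystallin. The 4 WT points (276 to 297 CPM) lay above all 6 FUN025/+ points (229 to 262 CPM), and the FUN025/FUN025 points (241 to 307 CPM) overlapped both.

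Of the 18 other lens fibre genes, 8 were tested and 0 were called in any of the 3 comparisons by edgeR. Of all genes, 13.7% (FUN025/+ against WT), 14.0% (FUN025/FUN025 against WT) and 0.522% (between the mutants) were called, so 0 of 8 is not far from those shares. Crygb, Crygc, Crygd and Lgsn were at 0 in WT replicates 1, 3 and 4. Others had few counts everywhere, Cryga with 0 in all 15 libraries, Lim2 with 8 and Lenep with 7 in total. Bfsp2, the filament partner of Bfsp1, at 15.4 to 28.5 CPM, and Hsf4, a heat shock factor needed in lens, at 16.3 to 20.02 CPM, were present at similar levels in libraries with and without γ-crystallin counts. In FUN025/FUN025 replicate 3, where 9 of the 10 genes were highest, both of these were at their lowest. Summed, the 18 genes stood at 44.0 to 56.1 CPM in WT, 36.6 to 65.1 in FUN025/+ and 39.3 to 67.9 CPM in FUN025/FUN025 libraries. Bfsp2 and Hsf4 made up most of this sum in every library, so its similar ranges are no measure of lens RNA.

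Of 10 regulators of lens genes, 9 were tested, and those abundant in the eyecup are also expressed by pigment epithelium, ciliary epithelium or retina. Maf fell in FUN025/+ eyecups from 102 to 84.6 CPM (log2 fold change −0.27, edgeR adjusted p = 0.00411) and was not called in FUN025/FUN025 (−0.18, edgeR adjusted p = 0.0567). Six3 fell in both, by 0.17 and 0.27 on the log2 scale. Pax6 was not called and was highest, at 414 CPM, in a library where the crystallins were high too, FUN025/FUN025 replicate 4. The other libraries rich in γ-crystallin did not all share this. Summed, the 10 regulators stood at 734 CPM in that library and 657 CPM in WT replicate 2. They stood at 542 CPM in FUN025/FUN025 replicate 3 and 540 CPM in FUN025/+ replicate 1, and the lowest library of all was at 510 CPM. Against WT, 2 of the 9 tested regulators were called in FUN025/+ and 1 in FUN025/FUN025, beside 13.7% and 14.0% of all genes. None of the 9 was called between the mutant genotypes by edgeR, where 0.522% of all genes were called. Of 7 genes that carry the crystallin name without being lens fibre proteins, Cryl1 rose in FUN025/+ (log2 fold change 0.31) and Crybg3 in both (0.22 and 0.20), and the other 5 were not called. These 2 of 7 and 1 of 7 stood beside the same 13.7% and 14.0% of all genes, the latter close to that share.

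Markers of the other tissues an eyecup can hold were read against the 4 libraries with the most γ-crystallin counts. Rod genes summed to 2714 CPM in WT replicate 2, the highest of all 15 libraries, and to 851, 559 and 313 CPM in FUN025/+ replicate 1, FUN025/FUN025 replicate 3 and FUN025/FUN025 replicate 4, in a range of 197 to 2714 CPM. All 15 rod genes were lower in both mutant genotypes than in WT, with median log2 fold changes of −1.77 and −1.82, and 1 of them was called, in FUN025/FUN025. WT replicate 2 carried much of these folds, since WT replicates 1, 3 and 4 summed to 895, 605 and 380 CPM. Rod sums were 197 to 851 CPM in FUN025/+ and 198 to 561 CPM in FUN025/FUN025 libraries. All 5 cornea genes were higher in both, with medians of 1.23 and 0.91 and none called. Cornea genes were highest, at 3590 CPM, in FUN025/+ replicate 6, which came next after the 3 high mutant libraries for Cryaa (12.02 CPM), with Krt12 at 967 CPM there against a median of 14.2 CPM. In the 4 libraries with the most γ-crystallin counts they followed no such order. They summed to 247 CPM in WT replicate 2, the lowest of all 15, and to 1544 CPM in FUN025/+ replicate 1. In FUN025/FUN025 replicates 3 and 4 they summed to 459 and 881 CPM. The 2 ciliary epithelium and vitreous genes summed to 58.9 to 193 CPM, with the highest value in FUN025/+ replicate 4, a library with 0.954 CPM of Cryaa. The pigment epithelium (7 genes), melanocyte (4), cornea (5) and ciliary lists had no gene called in the 3 comparisons by edgeR. Called in both mutant genotypes against WT were Rbpms (of 10 inner retina genes tested), Cdh5 and Plvap (5 endothelium) and Des (5 smooth muscle). Sncg (inner retina) was called in FUN025/+ alone, and Rom1 (15 rod genes) and Pecam1 (endothelium) in FUN025/FUN025 alone. All were lower in mutants where called, and 13.7% and 14.0% of all genes were called in those comparisons. The part of these tissues in the crystallin levels was not tested.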

How the data were processed

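The authors deposited whole-number read counts per Ensembl gene for each library, unnormalized. Per the submitters' processing notes these came from FastQC 0.11.8, Trimmomatic 0.39, HISAT2 2.1.0, SAMtools and featureCounts 2.0.0 on GRCm38. The strand setting, the annotation release and the handling of multimapping reads are not given in the sources used here. Libraries were poly(A)-selected (NEBNext Ultra) and sequenced paired-end on a HiSeq. Symbols and positions came from GENCODE M21, which held 55240 of the 55421 genes, and the 181 others kept their identifiers.

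As in the study, a variance filter dropped the lowest 15% of genes, after which edgeR's filterByExpr left 18979. All 15 libraries entered 1 fit with TMM scaling and the robust quasi-likelihood test of edgeR 4.0.16 (R 4.3.3), with Benjamini-Hochberg adjustment over all genes tested and a threshold of 0.05. Groups came from the sample titles. For correlations, log2 CPM values had 2 as prior count, and 100000 permutations were drawn within genotype. Scripts for fitting were tested on simulated counts. The same-genotype libraries differed by a chi-square per gene of 3.23 to 18.9, and none was counted as a repeat of another. No sequencing batch is labelled, so one that held the deeper WT libraries cannot be told apart from genotype.

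The 10 genes, the 14 other gene lists and the rule for named genes were chosen with earlier results of these data known. The rule named all 10 genes with their values. Of each other list it took up to 5 called genes and the 3 of highest level, of which those that a result turns on are printed with values. For Cryaa, Cryab and Crybb2 it took the 5 genes of most similar profile. Alternatives were other scalings, DESeq2 1.42.0, limma 3.58.1, other filters, fits of the compared genotypes alone, the replicate number as a block, other correlation settings and leaving out each library. Leaving out the 4 libraries with at least 5 CPM of Crygb, Crygc and Crygd, and using Crygb, Crygc, Crygd and Lgsn alone as the lens list, were chosen after seeing the data. Promoters came from RefSeq on GRCm38.p6. Python 3.11.15, numpy 2.4.6, pandas 2.3.3, scipy 1.17.1 and matplotlib 3.10.9 were used. Sex is not labelled per mouse and was in no fit.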

Additional observations from a re-analysis of the deposited data

Results flagged for a closer look

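Each of the 10 genes was examined in each genotype for a library far from the others of its group, by the gap of the highest or lowest library to its neighbour as a share of the group's range. Of 30 gene and genotype groups, 15 held such a library, where chance gives about 1 in 20 groups, and the 10 genes are not independent of one another. The library was FUN025/+ replicate 1 in 9 cases and WT replicate 2 in 6.

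In FUN025/+ replicate 1 the highest levels of the genotype were 46.4 CPM for Cryaa, 12.3 for Cryba1, 5.13 for Cryba2, 5.43 for Cryba4, 2.86 for Crybb1, 21.7 for Crybb2, 7.11 for Crybb3, 10.4 for Crygs and 5.94 CPM for Bfsp1. The next highest FUN025/+ libraries stood at 12.02 CPM for Cryaa, 3.54 for Crybb2 and 3.76 CPM for Bfsp1. Cryab is the 1 gene of the 10 for which this library was not the highest of its genotype, and it was the lowest there at 229 CPM.

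In WT replicate 2 the highest WT levels were 6.07 CPM for Cryaa, 1.93 for Cryba1, 1.13 for Cryba2, 1.83 for Cryba4, 4.14 for Crybb2 and 2.74 CPM for Crygs. The other 3 WT libraries had 0 counts of Cryaa, Cryba2 and Crybb2. The same library had 6.71 CPM of Crygb, Crygc and Crygd together, against 0 in the other 3, and the highest summed rod gene level of the 15 libraries. FUN025/FUN025 replicates 3 and 4 were both high, and with 2 high libraries among 5 neither stood alone by this measure.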

How the results depend on the processing

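The number of the 10 genes called was 1, 0 and 0 in the 3 comparisons under every setting that used all libraries, and with the 4 libraries of most γ-crystallin counts left out it was again 1, 0 and 0, but the gene called was Cryba1 in place of Cryab, which was at −0.18. Leaving out each library in turn gave 0 to 1 genes in FUN025/+ against WT, 0 without WT replicate 2 or WT replicate 4, and Cryab ran from −0.25 to −0.20 there, past the threshold in 13 of 15 fits. Directions that turned on leaving out a library were those of genes without a call in FUN025/+ against WT: Cryba4 ran from −0.24 to 2.54, Crygs from −0.31 to 3.80, Crybb3 from −0.48 to 0.13 and Bfsp1 from −0.17 to 0.0895. Bfsp1 was −0.0325 with limma. Folds of Cryaa and Crybb2 kept their sign but moved widely, where Cryaa ran from 1.23 to 10.24 and Crybb2 from 0.22 to 9.04 in FUN025/+ against WT, and in FUN025/FUN025 against WT Cryaa ran from 3.39 to 11.95 and Crybb2 from 2.58 to 10.43, with the highest of each without WT replicate 2, where WT was at 0 for both.

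With the replicate number as a block (replicate block), 1, 0 and 0 genes were called and Crybb3 turned to 0.0659. Same-numbered libraries of different genotypes are different mice, and their deviations had a mean correlation of −0.0759 (−0.385 to 0.133, over 0.1 in 1 of 13 pairs), so the numbers do not pair them.

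With the 4 libraries left out, FUN025/+ against WT gave −0.10 for Bfsp1, FUN025/FUN025 against WT −0.60 for Crybb3, and FUN025/FUN025 against FUN025/+ −1.22 for Cryaa, −0.0082 for Cryab, −0.45 for Cryba1, −0.28 for Crybb2 and −0.22 for Crybb3, none called. Cryba2, Cryba4, Crybb1 and Crygs could not be tested in that fit, since they did not pass the filter on the 11 libraries. There, 0 genes passed against the lens list, with Bfsp1 at r = −0.049, and r with rod genes was −0.406 for Cryaa, −0.305 for Cryab, −0.365 for Cryba1, −0.418 for Cryba2, −0.40 for Cryba4, −0.315 for Crybb1, −0.59 for Crybb2, −0.45 for Crybb3, −0.266 for Crygs and −0.211 for Bfsp1. With muscle genes r was 0.158 for Crybb1. The lower number of libraries is part of that construction, and so is the loss of the only WT library with counts of Crygb, Crygc or Crygd.

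Leaving out each library in turn, 8 to 9 genes passed against the lens list, 0 to 8 against rod genes (8 without FUN025/FUN025 replicate 2) and 0 to 1 against muscle genes, and 1 passed against muscle genes without centring. The gene that passed against muscle genes was Cryab. Its r there was 0.705 without centring, which keeps the genotype difference. On leaving out a library it ran from 0.362 to 0.547 and passed in 3 of 15 fits. The r of Cryab ran from −0.0127 to 0.701 with lens and from −0.267 to 0.227 with rod genes, and those with muscle genes from −0.265 to 0.115 for Crybb1 and from −0.245 to 0.143 for Crybb3. The causes were not tested. Of the fold changes of the 10 genes, 426 of 441 kept direction and side of the threshold on leaving out a library and 246 of 257 under other settings. Depth limits the 7 crystallins that had 0 to 6 counts in WT replicates 1, 3 and 4.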
